A study of Homo sapiens with 4 samples.

Results

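Long intergenic and host-gene noncoding RNAs were followed in MM.1S, a cell line established from human multiple myeloma, during inhibition of the NEDD8-activating enzyme. They were the genes with a symbol of LINC or SNHG and a number, microRNA host genes (MIR, a number and HG), and MALAT1, NEAT1, GAS5, DANCR, EPB41L4A-AS1 and MIAT, on probe sets that the array annotation gives to 1 gene. Of 890 such genes, 215 were measured, meaning that the mean log2 intensity over the 4 arrays of their brightest probe set was above the median of all probe sets, a geometric mean intensity of 93.9. Among the 12446 genes measured by the same filter, of 19775 with a probe set, the 215 comprised 190 LINC genes, 6 SNHG genes, 14 microRNA hosts and 5 of the RNAs named singly. NEAT1 was not among them, because its probe sets carry several gene symbols, as did all probe sets of 52 symbols that the naming rule would take. The cells had been grown with 250 nM MLN4924, an inhibitor of the NEDD8-activating enzyme, for 8, 16 or 24 h, or with the vehicle DMSO as control, whose label gave no culture time. NEDD8 is the ubiquitin-like protein that switches on cullin-RING ubiquitin ligases. There was 1 expression array of total RNA per condition, so no test between conditions was possible and the number of arrays limits the precision.

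Long noncoding RNAs are transcribed and usually spliced and capped like messenger RNAs but are not translated into a known protein. Some stay in the nucleus, as MALAT1 does in nuclear speckles, the bodies where splicing factors gather. Others serve mainly as hosts: small nucleolar RNAs (snoRNAs), which guide the modification of ribosomal RNA, or microRNAs, which repress messenger RNAs through a short seed at their 5′ end, are cut from their introns or exons. Many snoRNA hosts begin with a terminal oligopyrimidine (TOP) tract, as ribosomal protein messenger RNAs do, and their spliced RNA is degraded when it is translated.

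The 215 were selected on their level over all 4 arrays, treated ones included, and not on the differences between them, so the levels are a description and no finding. Just inside the filter lay LINC00593, with a geometric mean intensity of 93.9, and just outside it LINC01620, with 93.6. The 675 genes below the filter included 0 that were 2-fold from the control at any time once values were raised to the floor of 48.4. Of the 215, 214 were long noncoding RNAs in the RefSeq gene table, and LINC01296 was not matched there. The noncoding RNAs were dim: 24.2% of the candidates passed the filter, against 62.9% of all genes, and those that passed had a median geometric mean intensity of 130.5, against 384 for all measured genes. There were 162 with a geometric mean under 200, 37 between 200 and 500 and 16 above 500. Since probe sets differ in how brightly they respond, levels of different genes are not set against each other as amounts of RNA.

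All 9 plasma cell markers looked at were measured, with summed intensities of 65524 on the control array and 58749, 63832 and 63453 after 8, 16 and 24 h. Of the markers of other cells, 1 of 3 B cell genes, 2 of 5 T and NK cell genes, 0 of 3 myeloid genes, 1 of 4 stromal genes and the only erythroid gene with a probe set, HBB, were measured. The medians of all deposited values lay between 92.2 and 95.4 on the 4 arrays. As a stand-in for technical spread, the pooled SD of the log2 difference between probe sets of the same noncoding RNA, over 30 genes with 78 probe sets, was 0.22, 0.25 and 0.26 at 8, 16 and 24 h. The same SD over all 5719 genes with at least 2 measured probe sets was 0.16, 0.19 and 0.18 at these times. It does not hold the spread between cultures. In RNA from whole cultures, less RNA per cell and fewer cells with an RNA cannot be told apart.

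Most noncoding RNAs stayed near their control level. Of the 215, 195 lay within 1.5-fold of the control at all 3 times (90.7%, against 92.0% of all measured genes), with log2 differences between −0.58 and 0.57. The other 20 included LINC00324 and MIAT, which were at least 2-fold higher late in treatment, and a set of LINC genes that were lower on the 8 h array alone. At 8 h, 0 of 215 were at least 2-fold higher, where 0.129% of all measured genes were, and 0 were at least 2-fold lower, where 0.121% were. At 16 h the only noncoding RNA past 2-fold was LINC00324, which was higher, beside 0.386% of all measured genes higher and 0.289% lower. At 24 h, LINC00324 and MIAT were at least 2-fold higher (0.93%, beside 0.514% of all measured genes), and 0 of 215 were at least 2-fold lower, beside 0.193%. With counts this small the shares are near the background.

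At the wider limit of 1.5-fold, the 8 h array had 3 higher noncoding RNAs (1.4%, beside 0.731% of all measured genes) and 8 lower ones (3.72%, beside 1.12%). The 16 h array had 4 higher (1.86%, beside 2.24%) and 2 lower (0.93%, beside 2.73%). The 24 h array had 7 higher (3.26%, beside 2.85%) and 0 lower, beside 2.31% of all measured genes. Differences above 0 were found for 125, 138 and 141 of the 215 at 8, 16 and 24 h, which is 58.1%, 64.2% and 65.6%. Of all measured genes 51.7%, 54.3% and 52.6% were above 0, and of those as dim as most noncoding RNAs, with a geometric mean of up to 200, 59.4%, 62.1% and 59.2%. The median log2 difference of the noncoding RNAs was 0.050, 0.073 and 0.091 at these times, against 0.0071, 0.026 and 0.016 for all measured genes. In the 162 dim noncoding RNAs it was 0.080, 0.079 and 0.091, against 0.054, 0.067 and 0.054 for all dim genes. Dim genes as a whole also lay above all measured genes. Of these 162, 64.8%, 66% and 65.4% were above 0. The other 53, with a geometric mean over 200, were above 0 in 37.7%, 58.5% and 66%. Of all genes this bright, 48.2%, 50.8% and 49.6% were above 0. The median of the 53 was −0.039, 0.051 and 0.081, against −0.0075, 0.0055 and −0.0014 for all genes this bright.

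**Figure D1:**
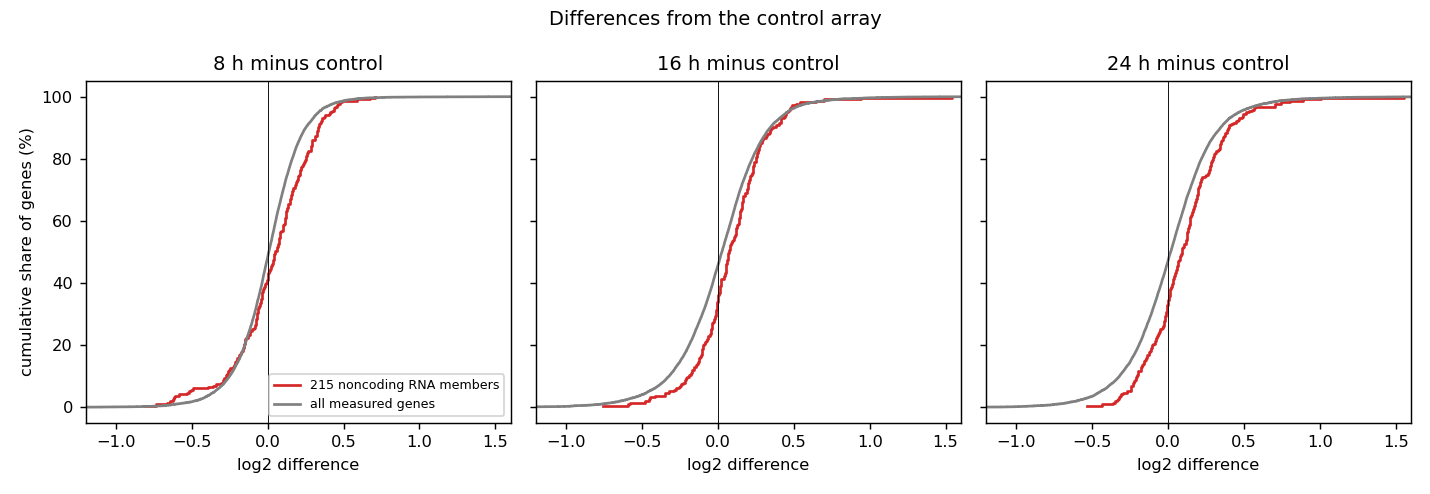
Cumulative share of genes (%) by log2 difference from the control array at 8, 16 and 24 h, for the 215 noncoding RNAs (red) and all measured genes (grey); the axis is limited to −1.2 to 1.6 and leaves out a few genes beyond it. The red curve lies to the right of the grey one around 0, with a step at its low end at 8 h and a far point at 1.54 and 1.55 for LINC00324 at 16 and 24 h.

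LINC00324 had the largest difference of all the noncoding RNAs. Its intensity was 137 on the control array and 158, 398 and 401 after 8, 16 and 24 h. The control and 8 h arrays were close together and low, and both late arrays were high. Relative to the control the log2 difference was 0.21, 1.54 (2.91-fold) and 1.55 (2.94-fold) at these times, and the late values ranked 9th and 12th from the top of all 12446 measured genes. The step was made between 8 and 16 h, where LINC00324 was the only noncoding RNA past 2-fold (log2 difference 1.33, beside 0.217% of all measured genes higher). It has 1 probe set on the array, so no other probe set stands beside these values. Among measured genes in the RefSeq order it lies between AURKB, the kinase of the chromosomal passenger complex, and CTC1, a subunit of a telomere-binding complex. Unmeasured genes were passed over, here and for the neighbours given below. AURKB had intensities of 1762, 1854, 1564 and 1477 on the control, 8 h, 16 h and 24 h arrays, and CTC1 257, 209, 261 and 247. The log2 differences of both neighbours were at most 0.30 in size at all 3 times.

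MIAT, a nuclear long noncoding RNA first described at a locus tied to myocardial infarction, had 4 measured probe sets. Its brightest gave intensities of 1266 on the control array and 2063, 2432 and 2537 after 8, 16 and 24 h. All 3 treated arrays lay above the control, and most of the difference was present at 8 h. The log2 differences were 0.70, 0.94 and 1.003 (2.005-fold), so the 24 h value sat at the limit of the 2-fold count. The next brightest pair of probe sets had 822, 1501, 1821 and 1776, and 974, 1365, 1632 and 1744, on the control, 8 h, 16 h and 24 h arrays. The dimmest had 185, 219.6, 216 and 215 on the same arrays. All 4 were higher on every treated array, by 0.24 to 0.87 at 8 h, 0.22 to 1.15 at 16 h and 0.22 to 1.11 at 24 h (log2).

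Among measured genes in RefSeq's order, MIAT lies between CRYBB1, which codes for a lens crystallin, and MIATNB. CRYBB1 had intensities of 1840.4, 1340.4, 618 and 480.1 on the control, 8 h, 16 h and 24 h arrays. It ran against MIAT, with log2 differences of −0.46, −1.57 and −1.94, the last being the lowest of all measured genes at 24 h. MIATNB had 163, 170.4, 190 and 190 on these arrays, with log2 differences of 0.06, 0.22 and 0.22. A role of either neighbour in the MIAT values was not tested.

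The sequences around the annotated starts of LINC00324 and MIAT are shown because these are the noncoding RNAs past 2-fold. They run 5′ to 3′ from 250 bases before to 50 after the start, from RefSeq on GRCh38.p14, in lower case with motif matches in capitals. The motifs searched on both strands were the E-box CACGTG, the antioxidant response element TGACNNNGC, to which NRF2, a substrate of a cullin-RING ligase, binds with small MAF proteins, and the cyclic AMP response element TGACGTCA.
LINC00324 (chr17:8223994-8224293, minus strand): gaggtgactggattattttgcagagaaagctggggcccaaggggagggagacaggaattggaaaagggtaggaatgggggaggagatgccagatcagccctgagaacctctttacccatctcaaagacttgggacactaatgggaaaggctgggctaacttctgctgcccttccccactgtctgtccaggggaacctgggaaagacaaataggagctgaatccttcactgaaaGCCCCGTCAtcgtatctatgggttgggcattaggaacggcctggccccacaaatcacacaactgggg
MIAT (chr22:26646179-26646478, plus strand): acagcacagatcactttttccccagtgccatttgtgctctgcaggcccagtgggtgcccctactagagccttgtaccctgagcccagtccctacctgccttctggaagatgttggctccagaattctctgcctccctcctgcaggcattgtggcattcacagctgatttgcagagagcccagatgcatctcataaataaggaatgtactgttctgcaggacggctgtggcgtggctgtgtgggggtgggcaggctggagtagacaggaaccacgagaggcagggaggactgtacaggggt

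The LINC00324 window held 1 match of TGACNNNGC, on the strand opposite to the gene, at position −17 counted from the start. The MIAT window held no match of the 3 motifs, which says only that these letters are not in it. Over all noncoding RNAs, 187 promoter windows of 165 genes were in the RefSeq table. The antioxidant response element matched in 14.4% of them, against 13.3% of all 35116 windows of the same length. The E-box matched in 9.09%, against 7.26%, and the cyclic AMP response element in 2.14%, against 1.85%. A match is a string of letters and not a bound site.

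**Figure D2:**
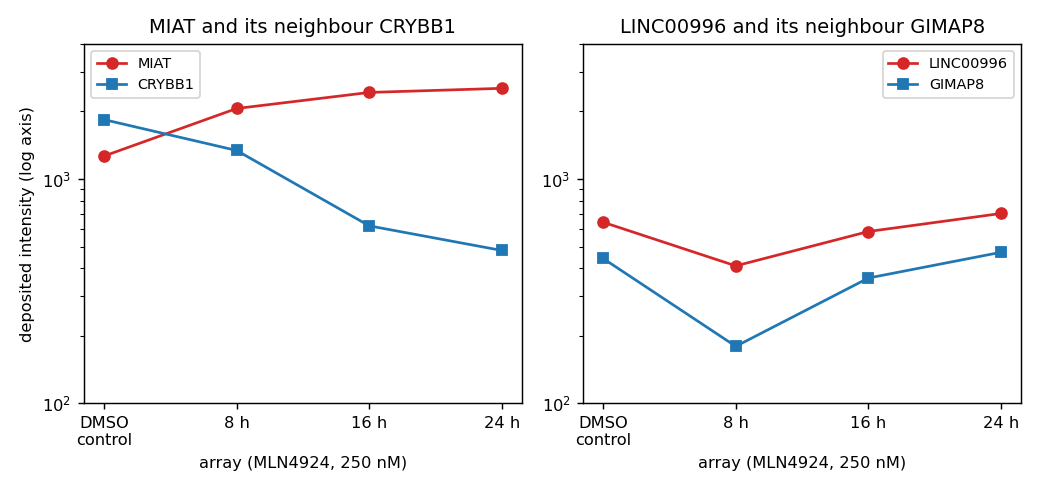
Deposited intensity (log axis) of MIAT and CRYBB1 (left) and of LINC00996 and GIMAP8 (right) on the control, 8 h, 16 h and 24 h arrays, 1 point per array. MIAT is higher on each later array while CRYBB1 is lower on each, ending at 480.1, and LINC00996 and GIMAP8 both have their lowest value at 8 h.

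A set of LINC genes was low on the 8 h array and back near the control later. By the rule that the 8 h array lies at least 0.5 on the log2 scale below each of the other 3 arrays, there were 8 (3.72%, beside 0.434% of all measured genes). They were LINC00339, LINC00494, LINC00528, LINC00623, LINC00996, LINC01003, LINC01004 and LINC01234. Above a geometric mean of 200, 4 of 53 noncoding RNAs met the rule (7.55%, beside 0.373% of such genes), and up to 200, 4 of 162 (2.47%, beside 0.57%). The opposite pattern, an 8 h array above the other 3, was met by 0 noncoding RNAs, beside 0.0803% of all measured genes. A low 16 h array, at least 0.5 below both 8 and 24 h, was also met by 0, beside 0.498%.

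LINC00996 gave 642 on the control array and 409.9, 583 and 702 after 8, 16 and 24 h. Its log2 differences from the control were −0.65, −0.14 and 0.13. The measured gene next to it in RefSeq's order is GIMAP8, of the family of GTPases of immunity-associated proteins. GIMAP8 gave 442, 179, 362 and 471 on the same arrays. GIMAP8 had log2 differences of −1.30, −0.29 and 0.09, and its 8 h difference was the lowest of all measured genes. The neighbouring pair thus shared a low 8 h array and a 24 h value slightly above the control, as the plot of both pairs of neighbours shows. For 5 of the LINC genes low at 8 h both neighbours were looked at, and for LINC00494, LINC01004 and LINC01234 they were not. Of the 10 neighbours looked at, GIMAP8 was the only one at least 0.5 lower at 8 h. The other 9 had log2 differences between −0.24 and 0.45 at 8 h, among them LOC728743, the other neighbour of LINC00996, at 0.20.

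LINC00339 had 409, 266, 419.8 and 473 on the control, 8 h, 16 h and 24 h arrays (log2 differences −0.62, 0.04 and 0.21). LINC01003 had 233, 139.95, 213 and 232 (log2 differences −0.73, −0.13 and −0.0045). Its measured neighbour at the lower coordinate, the histone methyltransferase gene KMT2C, had 1618, 1557, 1543 and 1799. KMT2C did not show the low 8 h array of LINC01003. LINC00623 had 652, 422, 782 and 896, with log2 differences of −0.63, 0.26 and 0.46. The name endings of the LINC00623 and LINC01003 probe sets mark possible matches to other transcripts. LINC00528 had the lowest 8 h difference of all the noncoding RNAs, −0.81, with intensities of 135, 76.9, 112 and 118. LINC00494 had 161, 101, 167 and 175 on the 4 arrays.

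Dim as well were LINC01004, with 110.4, 76.3, 116 and 133 on the control, 8 h, 16 h and 24 h arrays, and LINC01234, with 119, 79.3, 120.4 and 119. Among the snoRNA hosts, SNHG33 had the same shape on both of its probe sets, without meeting the rule on its brightest. The summed plasma cell markers were also lowest at 8 h, and their part in this pattern was not tested.

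**Figure D3:**
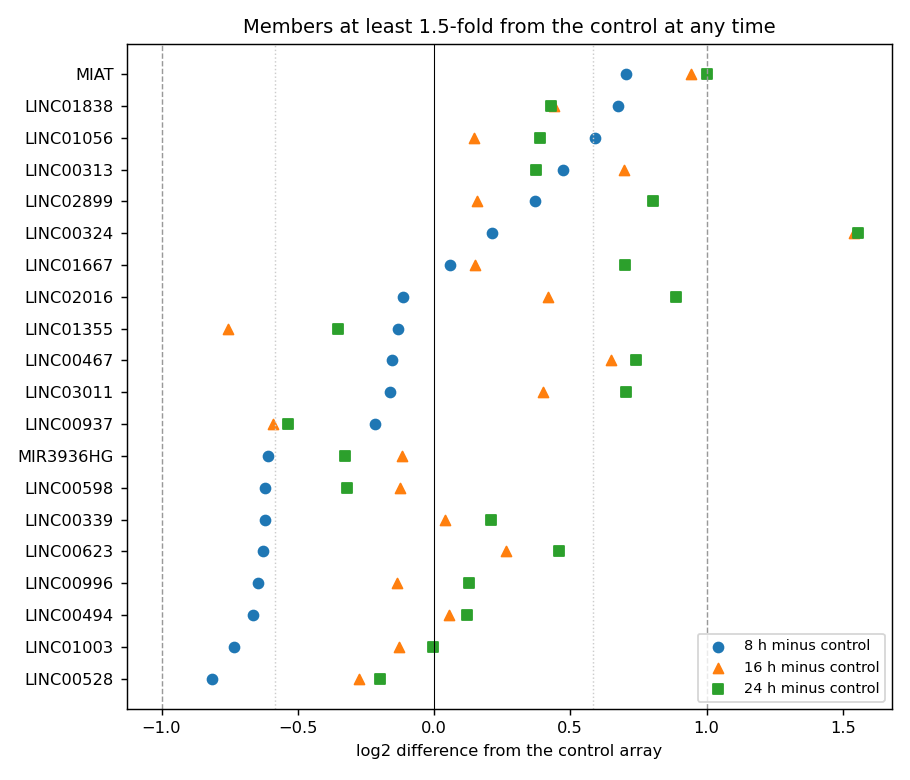
Log2 difference from the control array (x axis) at 8 h (circles), 16 h (triangles) and 24 h (squares) for the 20 noncoding RNAs at least 1.5-fold from the control at any time, ordered by the 8 h value; dotted lines mark 1.5-fold and dashed lines 2-fold. LINC00324 stands apart at 16 and 24 h, the 8 h points of 8 RNAs lie at the left edge between −0.81 and −0.61, and no point lies below −1.

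Among the LINC genes, the 6 highest at 8 h were LINC01838 and LINC01056, at log2 differences of 0.67 and 0.59, and LINC02878, LINC00313, LINC03086 and LINC01648, between 0.44 and 0.49. LINC01838 had 93.3, 149, 127 and 126 on the control, 8 h, 16 h and 24 h arrays. LINC01056 had 112, 169, 124 and 147. Both had their highest value at 8 h, in the dim range. The 6 lowest at 8 h were LINC00528, LINC01003, LINC00494, LINC00996, LINC00623 and LINC00339, described above, and LINC00598 followed at −0.62 with 131, 85.2, 119.96 and 105. Its other measured probe set had 84.4, 86.8, 96.7 and 111, with log2 differences of 0.04, 0.20 and 0.39, so the sign for LINC00598 was opposite on its probe sets at all 3 times.

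At 16 h the 6 highest LINC genes were LINC00324, LINC00313, LINC00467, LINC02091, LINC02035 and LINC00685, from 1.54 down to 0.48. LINC00467 had 417 on the control array and 375, 654 and 698 after 8, 16 and 24 h, with log2 differences of −0.15, 0.65 and 0.74. Its other probe set had 276, 193, 254 and 334 and log2 differences of −0.52, −0.12 and 0.28. The probe sets shared the low 8 h and the high 24 h array but not the sign at 16 h. LINC00313 had 72.3, 100.4, 117 and 93.8 on these arrays, and LINC02035 had 228, 283, 325 and 321. The 6 lowest at 16 h were LINC01355, LINC00937, LINC00342, LINC00992, LINC02175 and LINC00597, from −0.76 up to −0.45. LINC01355 had 215, 197, 128 and 169, and LINC00937 had 381, 328, 253 and 263, so that LINC00937 was low on both late arrays on its brighter probe set. Its other probe set had 131, 114, 131 and 124, with log2 differences of −0.21, −0.0039 and −0.08. LINC00342, bright for a LINC gene, had 970.4, 888, 649 and 901 and was low at 16 h alone on its brightest probe set. Its other measured probe sets had 983, 798, 668 and 949, and 538, 481, 346 and 449. Both were also lowest at 16 h, with log2 differences of −0.56 and −0.63. Neither has a name ending that marks possible matches to other transcripts.

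At 24 h the 6 highest were LINC00324, LINC02016, LINC02899, LINC00467, LINC03011 and LINC01667, from 1.55 down to 0.70. LINC03011 had 213, 191, 281 and 348 on the control, 8 h, 16 h and 24 h arrays. LINC02016 had 78.2, 72.2, 104 and 145, LINC02899 had 84.4, 109, 94.1 and 147, and LINC01667 had 89.6, 93.3, 99.4 and 146. The last 3 had their highest value at 24 h and were below 150 on every array. The 6 lowest at 24 h were LINC00937, LINC02036, LINC01355, LINC00628, LINC00598 and LINC02076, from −0.54 up to −0.31, of which LINC00598 was above the control on its other probe set. Of the 190 LINC genes, 172 stayed within 1.5-fold of the control at all 3 times.

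Both late arrays at least 0.5 on the log2 scale above both the control and the 8 h array were found for LINC00324 and LINC00467 (0.93%, beside 1.04% of all measured genes), and the opposite for 0, beside 0.739%. Between successive times, 9 noncoding RNAs were at least 1.5-fold higher at 16 h than at 8 h (4.19%, beside 1.86% of all measured genes), and 6 of them were among those low at 8 h. These 6 were LINC00339, LINC00494, LINC00623, LINC01003, LINC01004 and LINC01234, and the others were LINC00324, LINC00467 and LINC00847. The rule for a low 8 h array already asks for a 16 h array at least 0.5 higher. The overlap is therefore largely fixed by that rule and is no separate finding, and the share of 4.19% draws on the same 8 h array. LINC01355 and LINC02175 were at least 1.5-fold lower at 16 h than at 8 h (0.93%, beside 1.61%). Between 16 and 24 h only LINC00597 and LINC02899 were at least 1.5-fold higher (0.93%, beside 0.739%) and 0 were lower, beside 0.0884%. At 2-fold the same step had 0 higher, beside 0.0402% of all measured genes.

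**Figure D4:**
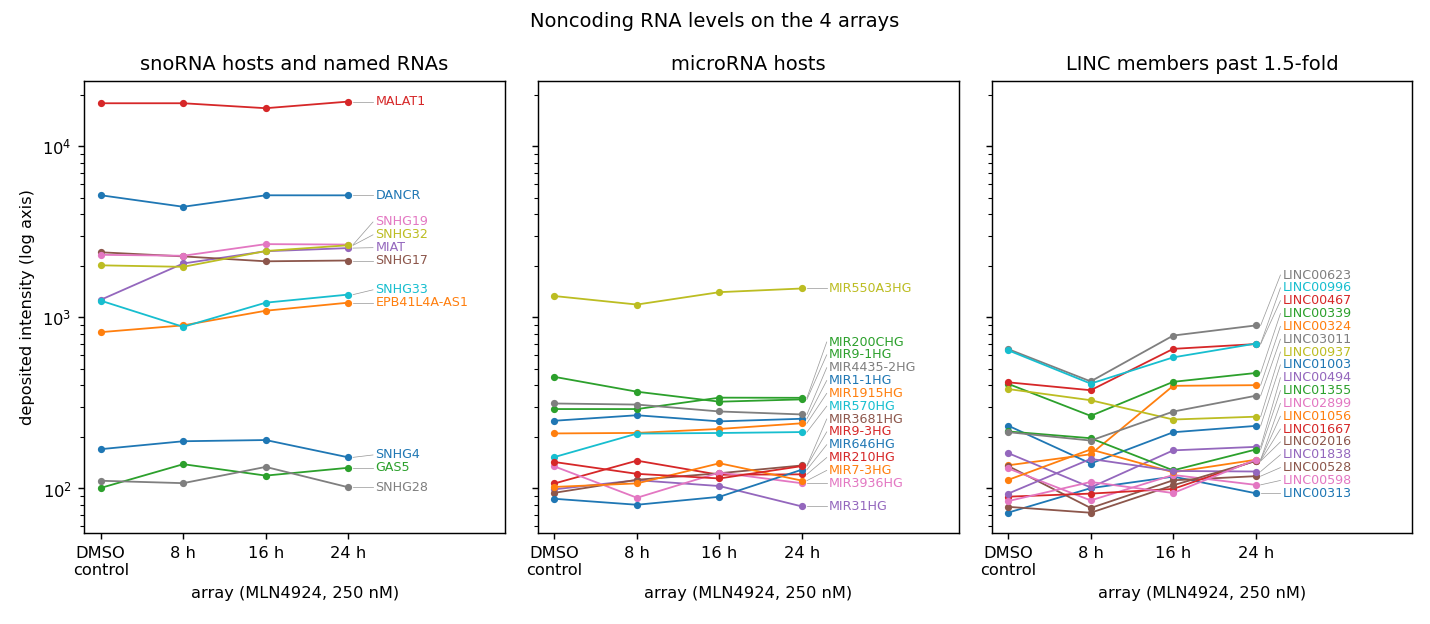
Deposited intensity (log axis) on the control, 8 h, 16 h and 24 h arrays, 1 point per array and 1 line per RNA, for the snoRNA hosts and singly named RNAs (left), the microRNA hosts (middle) and the 18 LINC genes at least 1.5-fold from the control at any time (right). The lines of the brightest probe sets of MALAT1 and DANCR are nearly flat, MIAT and LINC00324 end above their start, and several LINC lines dip at 8 h.

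Of the 6 SNHG genes 0 passed 1.5-fold on their brightest probe set at any time, beside 8.01% of all measured genes, and 6 genes are too few to read against that share. SNHG19, which holds the snoRNA gene SNORD60, had 2318 on the control array and 2289, 2676.5 and 2660.3 after 8, 16 and 24 h. SNHG32, which holds SNORD48 and SNORD52, had 2012, 1972, 2439.8 and 2636. Both had higher late arrays than control and 8 h arrays, with log2 differences at 24 h of 0.20 for SNHG19 and 0.39 for SNHG32. SNHG17, which holds 4 named snoRNA genes of the SNORA71 family, had 2398, 2269, 2124 and 2147, and its other probe set 1121, 1105, 963 and 975. It was thus lower on the late arrays on both probe sets, by 0.16 and 0.20 on the log2 scale at 24 h. SNHG33, which holds SNORA63D and SNORA63E, had 1251, 879.6, 1218 and 1358 (log2 differences −0.51, −0.04 and 0.12). Its other probe set had 1043, 589, 890.3 and 975 (−0.82, −0.23 and −0.10). Both were lowest at 8 h.

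SNHG4, which holds SNORA74A and SNORA74D, had 169.7, 189, 192 and 152 on the control, 8 h, 16 h and 24 h arrays, and SNHG28 had 111, 107, 134 and 102. Their log2 differences were at most 0.27 in size. DANCR, which holds SNORA26, had 5166, 4423, 5162 and 5158, so only the 8 h array stood off, with a log2 difference of −0.22. EPB41L4A-AS1, which holds SNORA13, had 819, 897, 1093 and 1218, with log2 differences of 0.13, 0.42 and 0.57. Its other probe set had 210.4, 225, 198 and 179 and differences of 0.10, −0.09 and −0.24, so its probe sets had opposite signs on both late arrays. GAS5, a host of 11 snoRNA genes that is named for its rise in growth-arrested cells, had 101, 139, 119 and 132 on its only probe set with 1 gene. All 3 treated arrays were above the control, by 0.46, 0.24 and 0.39 on the log2 scale, in the dim range. Its other probe sets carry several gene symbols and are not reported here.

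The 30 bases around the annotated start of the snoRNA hosts with a TOP-like tract are shown, since such a tract is what hosts of this kind share with ribosomal protein genes. The tract was taken as a C followed by at least 4 C or T, starting within 5 bases of the annotated start, and stands in capitals. EPB41L4A-AS1 is given beside them as a host without one. GAS5, SNHG28 and SNHG33 had no tract by this rule either, and their windows are not shown. A tract at a start other than the annotated one would be missed, so these genes may still have one.
SNHG19 (chr16:2155339-2155368, minus strand): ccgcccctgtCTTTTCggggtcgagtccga
SNHG32 (chr6:31834906-31834935, plus strand): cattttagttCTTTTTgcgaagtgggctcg
SNHG4 (chr5:139274091-139274120, plus strand): ctcccggctgCCCTTTCCCCTCCggcctct
DANCR (chr4:52712384-52712413, plus strand): tgcgcgccccgCCCTTgcccagagtcttcc
SNHG17 (chr20:38435309-38435338, minus strand): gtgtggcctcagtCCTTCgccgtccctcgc
EPB41L4A-AS1 (chr5:112160516-112160545, plus strand): tcatgaattctgtcgggtcccaaaatacgt

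Such a tract was present in 23.5% of the noncoding RNA windows, against 21.1% of all windows, so the letters alone are common. Of the 5 hosts with a tract, SNHG19 and SNHG32 had higher late arrays, SNHG17 lower ones, and DANCR and SNHG4 were within 0.18 of the control on both.

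Genes of related pathways also lay near the control, as most measured genes did. At 8, 16 or 24 h, at most 0.514% of all measured genes were 2-fold higher and at most 0.289% 2-fold lower. Lists as short as these cannot be read against such shares where their count is 0. Of 33 measured translation genes with a TOP tract, 0 were 2-fold from the control at any time. At 24 h, 24 of them were above 0, beside 52.6% of all measured genes. Their median log2 difference was 0.050, against 0.016 for all measured genes. RPLP2, a protein of the ribosomal stalk, differed most, at 0.67 on a dim probe set, followed by EIF3F, a subunit of initiation factor eIF3, at 0.52 at 24 h. Of 14 measured proteins of snoRNA particles, 0 were 2-fold away, while 10 were below 0 at 16 h and 11 at 24 h, with medians of −0.14 and −0.16. Of all measured genes 45.7% and 47.4% were below 0 at these times, with medians of 0.026 and 0.016. NOP58, a core protein of box C/D particles, had 5865 on the control array and 5621, 4243 and 5038 after 8, 16 and 24 h, and SNU13, which binds the box C/D fold, had 1291, 1419, 1083 and 939. GAR1 and NAF1, which serve box H/ACA particles, had log2 differences of −0.33 and −0.40 at 24 h. Of 17 measured protein-coding snoRNA hosts, the median at 24 h was 0.037, and WDR43 (−0.53 at 16 h) and RNF149 (0.49 at 16 h) differed most. Of 16 measured genes of nonsense-mediated decay, which degrades spliced host RNAs, 0 were past 1.5-fold at any time, beside 8.01% of all measured genes. The exonuclease gene XRN1 had the largest difference on this list, 0.46 at 24 h.

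MALAT1 was the brightest noncoding RNA, with 17800.4 on the control array and 17804, 16654.5 and 18204 after 8, 16 and 24 h. The brightest probe set thus differed by at most 0.10 on the log2 scale. Its 12 probe sets differed among themselves, and 8, 7 and 10 of them were above 0 at 8, 16 and 24 h. Their differences ran from −0.17 to 0.86 at 24 h with a median of 0.33, so the brightest probe set was flatter than most. Where the median level of all the probe sets stood for the gene on each array, the 24 h difference was 0.61. Of 26 measured nuclear speckle proteins, 20 were below 0 at 8 h, 18 at 16 h and 17 at 24 h, with medians of −0.10, −0.21 and −0.17. Of all measured genes, 48.3%, 45.7% and 47.4% were below 0 at these times, with medians of 0.0071, 0.026 and 0.016. The splicing-associated genes BCLAF1 and RBM25 were lowest at 16 h, at −0.78 and −0.66, and these were the only 2 of the 26 past 1.5-fold, beside 2.73% of all measured genes lower at 16 h. SRSF7, a serine and arginine rich splicing factor, had 6240, 4924, 4428 and 4517 on the control, 8 h, 16 h and 24 h arrays. Of 20 measured paraspeckle proteins, which bind the architectural RNA NEAT1, 17 were below 0 at 16 h and 18 at 24 h, with medians of −0.15 and −0.18, beside the same shares and medians of all measured genes. HNRNPH3 at −0.57 and CIRBP at −0.50 were lowest at 16 h, and RBM14 at −0.51 and NUDT21 at −0.50 at 24 h. None of the genes on these lists was 2-fold from the control at any time. The lists are too short to read that against the 2-fold shares of all measured genes.

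**Figure D5:**
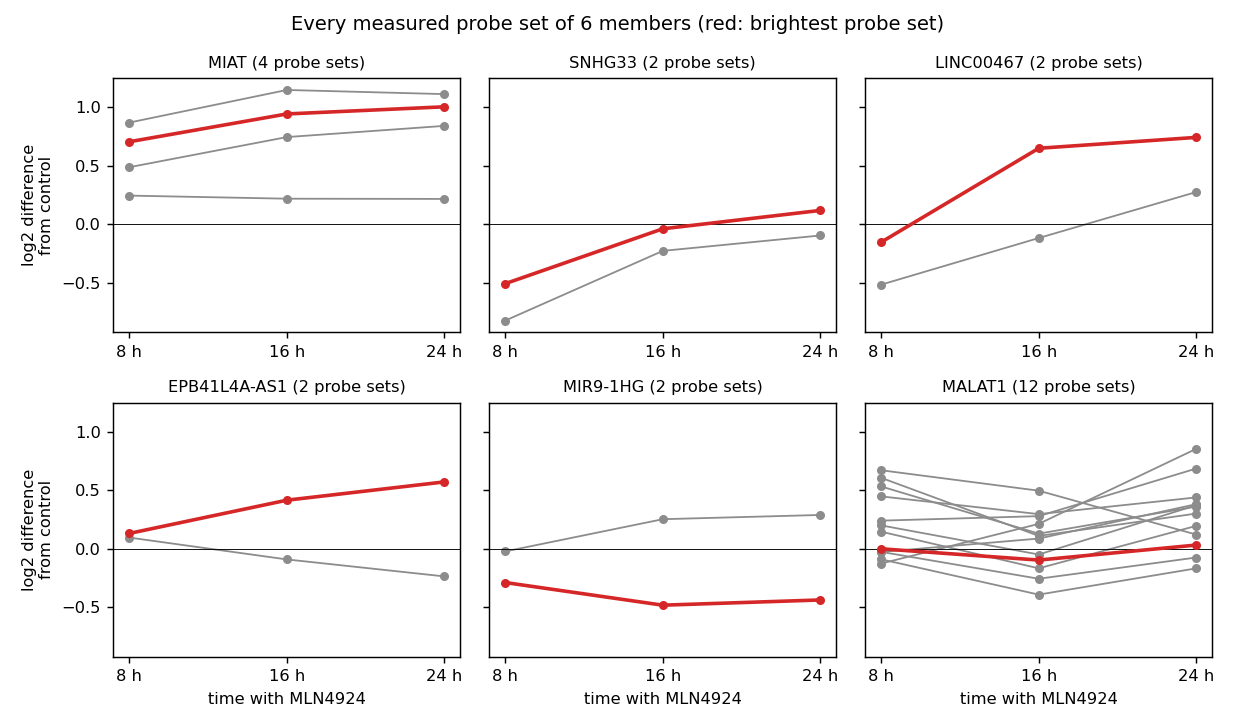
Log2 difference from the control array (y axis) at 8, 16 and 24 h for every measured probe set of MIAT, SNHG33, LINC00467, EPB41L4A-AS1, MIR9-1HG and MALAT1; the brightest probe set is red and the others grey. All 4 MIAT lines lie above 0, the brightest probe sets of EPB41L4A-AS1 and MIR9-1HG and their other probe sets have opposite signs at 16 and 24 h, and the 12 MALAT1 lines spread from −0.17 to 0.86 at 24 h.

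Where a noncoding RNA had a second measured probe set, the sign of its difference matched that of the brightest in 22 of 30 genes at 8 h and in 17 of 30 at 16 h and at 24 h. The plot of probe sets shows 6 such genes, and those of LINC00342, LINC00937 and LINC00598 are given in the text. For most of the 215, with 1 measured probe set, the sign had no such check. The brightest probe set of 20 of the 215 has an _x_at or _s_at ending, which marks possible matches to other transcripts. Among these 20 are LINC00342, LINC00467, LINC00597, LINC00623, LINC01003, SNHG17, SNHG19, SNHG32, MIR200CHG and MALAT1.

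The 14 microRNA hosts were mostly dim, and 1 of them, MIR3936HG, passed 1.5-fold at any time (7.14%, beside 8.01% of all measured genes). At 8, 16 and 24 h, 7, 9 and 9 of them were above 0, beside 51.7%, 54.3% and 52.6% of all measured genes, so these counts lie near the background. The named microRNA lay within the host's span in all 14. The arrays measure the host RNA and not the microRNA, whose level was not measured. The mature sequences below, from RefSeq on GRCh38.p14, are those whose seed is shared by 2 measured hosts and those of the 4 hosts with the largest differences; the seed (bases 2 to 8) is in capitals.
hsa-miR-9-5p in MIR9-1HG (chr1:156420392-156420414, minus strand): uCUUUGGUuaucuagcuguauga
hsa-miR-9-5p in MIR9-3HG (chr15:89368032-89368054, plus strand): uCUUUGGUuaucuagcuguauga
hsa-miR-9-3p in MIR9-1HG (chr1:156420354-156420375, minus strand): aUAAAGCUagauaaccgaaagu
hsa-miR-9-3p in MIR9-3HG (chr15:89368071-89368092, plus strand): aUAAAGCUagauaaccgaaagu
hsa-miR-200c-5p in MIR200CHG (chr12:6963703-6963724, plus strand): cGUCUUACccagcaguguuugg
hsa-miR-550a-3p in MIR550A3HG (chr7:29680748-29680769, minus strand): uGUCUUACucccucaggcacau
hsa-miR-570-5p in MIR570HG (chr3:195699425-195699446, plus strand): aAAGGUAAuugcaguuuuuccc
hsa-miR-570-3p in MIR570HG (chr3:195699460-195699481, plus strand): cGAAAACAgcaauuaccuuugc
hsa-miR-3936 in MIR3936HG (chr5:132365513-132365534, minus strand): uAAGGGGUguauggcagaugca
hsa-miR-646 in MIR646HG (chr20:60308534-60308552, plus strand): aAGCAGCUgccucugaggc
hsa-miR-3681-5p in MIR3681HG (chr2:12199138-12199159, plus strand): uAGUGGAUgaugcacucugugc
hsa-miR-3681-3p in MIR3681HG (chr2:12199174-12199195, plus strand): aCACAGUGcuucauccacuacu

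MIR9-1HG and MIR9-3HG hold the same mature microRNAs of the miR-9 family, known in neural tissue. MIR9-1HG had 449 on the control array and 368, 321 and 332 after 8, 16 and 24 h, with log2 differences of −0.29, −0.48 and −0.44. Its other measured probe set had 202, 199, 241 and 247, and differences of −0.02, 0.25 and 0.29. The direction of MIR9-1HG at 16 and 24 h therefore depended on the probe set. MIR9-3HG had 143, 122, 114 and 135 and was lowest at 16 h, at −0.32.

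MIR200CHG and MIR550A3HG share the seed GUCUUAC of miR-200c-5p and miR-550a-3p. MIR200CHG, whose microRNAs are known from epithelial cells, had 291 on the control array and 291, 339 and 339 after 8, 16 and 24 h. MIR550A3HG, the brightest host, had 1331, 1187, 1403 and 1474. Their log2 differences from the control were at most 0.22 in size.

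MIR3936HG had 135, 88.3, 124 and 107 on the control, 8 h, 16 h and 24 h arrays, and its 8 h difference of −0.61 was the lowest among the hosts. MIR570HG had 153, 209, 211 and 214, so that all 3 treated arrays lay above the control by 0.46 to 0.49. MIR210HG, host of the hypoxia-induced miR-210, had 107, 145, 120.2 and 121, highest at 8 h with a log2 difference of 0.44. MIR646HG had 87.1, 80.3, 89.4 and 129, and MIR3681HG 94.4, 112, 123 and 136. Both were highest at 24 h, at 0.57 and 0.53. MIR7-3HG had 102, 107, 140.4 and 111 and was highest at 16 h, while MIR31HG had 98.9, 112, 103 and 78.6 and was lowest at 24 h.

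MIR4435-2HG had 314, 309, 282 and 271 on the control, 8 h, 16 h and 24 h arrays. MIR1-1HG, host of the muscle microRNAs miR-1 and miR-133a, had 249, 268, 247 and 255, and MIR1915HG had 209.7, 211, 223 and 240.4. The log2 differences of these 3 hosts were at most 0.21 in size. Of 19 measured genes of microRNA processing and action, 0 were 2-fold from the control, a list too short to read against the 2-fold shares of all measured genes. TUT7, a terminal uridylyltransferase that acts on microRNA precursors, had 910.5 on the control array and 941, 1228 and 1597 after 8, 16 and 24 h. Its log2 difference of 0.81 at 24 h was the only one of the list past 1.5-fold, beside 2.85% of all measured genes higher at 24 h. DICER1, the nuclease that cuts precursors to mature microRNAs, had 537, 555, 364 and 445, lowest at 16 h at −0.56. TNRC6B and TNRC6C, which link Argonaute to the silencing machinery, had log2 differences of 0.48 and −0.46 at 24 h.

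By position, 8 of the 165 noncoding RNAs with a promoter entry had a protein-coding gene starting within 1000 bases in the opposite direction, 4 of 44 above a geometric mean of 200 and 4 of 121 up to it. The same share over all genes was not worked out, so these counts are a description and no finding. SNHG19 lies opposite TRAF7, a gene for a TRAF family protein, which had 912 on the control array and 1280.4, 1416 and 1246 after 8, 16 and 24 h. TRAF7 was above the control on all 3 treated arrays, by 0.45 to 0.63 on the log2 scale, while SNHG19 was between −0.02 and 0.21. LINC01134 lies opposite C1orf174, which was at −0.52 at 24 h where LINC01134 was at 0.07. None of the 8 was itself past 1.5-fold from the control at any time, beside 8.01% of all measured genes. With 8 genes that count cannot be read against this share.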

How the data were processed

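Per the labels' protocols, Trizol-extracted total RNA of MM.1S cells was turned into biotinylated cRNA, and Affymetrix arrays were hybridised with it. The values the authors deposited are intensities on a linear scale, 1 per probe set and array. How background, summary and scaling were done is not given in the sources used here. No further normalization was added, as the array medians lay within 0.048 of each other on the log2 scale.

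Probe sets were named from the array's annotation, and of 54675 probe sets the 41097 with exactly 1 gene were used, which can leave out or misname genes whose probe sets are shared. Intensities under 48.4 (25th percentile over the 4 arrays) were set to that floor before taking log2, which understates changes of dim genes. A gene was represented by its brightest probe set and counted as measured where its mean exceeded the median over probe sets. Differences between arrays were counted at 2-fold and 1.5-fold, beside the share of all measured genes past the same limit. No test was run, since each group had 1 array.

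The members, gene lists and rules were chosen with earlier results of these data known. Named were every measured SNHG gene, microRNA host and singly listed RNA, the 6 highest and 6 lowest LINC genes at each time and those past 2-fold, and, per list, up to 4 genes differing most. The 8 LINC genes low at 8 h, those past 1.5-fold between successive times, the neighbouring genes and the opposite promoters were named outside that rule, after their values were seen. Alternatives were the median of a gene's probe sets, other floors and filters, quantile or median scaling, and leaving out probe sets with _x or _s endings. Sequences and gene order came from RefSeq tables of GRCh38.p14, used for names, neighbours and sequences only. Neighbours were the nearest measured genes by start coordinate on each side, so unmeasured genes may lie between. The counting was tested on simulated data. Python 3.11.15 with numpy 2.4.6, pandas 2.3.3 and matplotlib 3.10.9 was used.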

Additional observations from a re-analysis of the deposited data

How the results depend on the processing

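Of 1215 values of named RNAs under the alternatives, 1188 moved by less than the spread between probe sets, 27 moved by more, and 0 of the values past 2-fold changed sign. Most of the 1188 had little or no room to move, so this count is no measure of robustness. A filter leaves a gene's difference as it was, and 0 intensities of the 215 lay at the floor. With the median of a gene's probe sets 24 values moved and 144 did not, and a gene with 1 probe set could not move. Without _x_at and _s_at probe sets 3 moved and 147 did not. LINC00324 kept 1.51 to 1.55 at 24 h and MIAT 0.96 to 1.01 (log2) wherever they were measured, and LINC00324 fell below the filter at the 75th percentile. With the median over all probe sets of a gene, 2 noncoding RNAs were 1.5-fold higher and 1 lower at 16 h, 1 was past 2-fold at 24 h, and 7 were past 1.5-fold between 8 and 16 h. In that setting MALAT1 stood at 0.61 at 24 h, MIR9-1HG at 0.26 at 16 h, EPB41L4A-AS1 at 0.17 at 24 h and LINC00598 at 0.04 at 8 h; it takes the median level of each array, dim probe sets included. Quantile normalization left 1 RNA 1.5-fold lower at 16 h, and median centring left 1 past 2-fold at 24 h, since MIAT was then at 0.96. With the filter at the 75th percentile, 32 noncoding RNAs remained: 1 was 1.5-fold higher and 3 were lower at 8 h, 0 were past 2-fold at 16 h with 2 past 1.5-fold higher and 1 lower, and 1 was past 2-fold and 2 past 1.5-fold higher at 24 h. Between 8 and 16 h 0 were then past 2-fold and 3 past 1.5-fold, between 16 and 24 h 0 were past 1.5-fold, and 3 met the rule of a low 8 h array. These counts are smaller because fewer genes are counted. With no filter, over 890 genes, 8 were 1.5-fold higher at 8 h, 5 lower at 16 h, 12 higher and 2 lower at 24 h, and 4 past 1.5-fold between 16 and 24 h. Without _x_at and _s_at probe sets 1 was past 1.5-fold between 16 and 24 h, and LINC00467 was at −0.12 at 16 h. No paired analysis was possible because each group had 1 array. Dim probe sets near the floor limit what can be seen for most of the 215, and with 1 array per group the spread between cultures is unknown.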

Other observations

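Some long noncoding RNAs outside the naming rule differed more than most of those within it; they were picked from the annotation by name, with values seen. LINC-PINT, a noncoding RNA transcribed from a p53-responsive locus, had 481 on the control array and 399.7, 859 and 1098 after 8, 16 and 24 h. Both late arrays were above control and 8 h, with log2 differences of −0.27, 0.84 and 1.19. DLEU2, whose introns hold the microRNAs miR-15a and miR-16-1, had 470.01, 381, 207 and 264, with log2 differences of −0.30, −1.19 and −0.83. It was lowest at 16 h, on a probe set whose name ending marks possible matches to other transcripts.

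ZFAS1, a snoRNA host not named SNHG, had 1916, 2054, 2530.03 and 2725 on the control, 8 h, 16 h and 24 h arrays, with a log2 difference of 0.51 at 24 h. NORAD, a cytoplasmic RNA that binds Pumilio proteins, had 4011, 3224, 3994 and 4013, low at 8 h alone by a log2 difference of −0.32. TUG1 was likewise lowest at 8 h, at −0.37. HCG18 and JPX were lowest at 16 h, at −0.59 and −0.51, and within 0.06 of the control at 24 h. OIP5-AS1 and FTX had log2 differences of at most 0.19 in size at all 3 times.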
